A study of Mus musculus with 2 samples.

Results

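Cytochrome P450 families 1 to 3 were followed in the livers of mice that lack Lpcat3 in hepatocytes. The genes were taken as every gene symbol of the array's annotation that starts with Cyp1, Cyp2 or Cyp3 followed by a letter. They comprised 54 of the 45101 probe sets. Of these, 52 named a single gene and covered 43 genes, out of 18193 genes that had a probe set of their own, and 2 were annotated to a pair of genes each. Control mice were Lpcat3fl/fl and L-Lpcat3 KO mice were Lpcat3fl/fl Albumin-Cre, so both carried the floxed allele and only the latter carried the Cre recombinase, which is driven in hepatocytes while other liver cells keep the gene. All mice were male, were put on the western diet at 7 weeks of age for 9 weeks, and had their livers taken after a fast of 6 hr. RNA of 5 mice per genotype was pooled, and each pool was hybridized to 1 array. Each genotype is thus represented by 1 value per probe set, there is no replicate check, and no test between genotypes was possible.

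Enzymes of these families are heme proteins of the endoplasmic reticulum that oxidize drugs, steroids, bile acids and unsaturated fatty acids, and the hepatocyte is their main site in the body. They take their electrons from P450 oxidoreductase and cytochrome b5. Their transcription is set by xenobiotic receptors, namely the aryl hydrocarbon receptor (AHR) for Cyp1 and the nuclear receptors CAR and PXR for Cyp2b, Cyp2c and Cyp3a, together with liver-enriched factors and, in rodents, the sex-specific pattern of growth hormone. Several members, among them Cyp1a2, Cyp2e1 and Cyp2c29, are highest in hepatocytes around the central vein.

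The deposited values were signal intensities on a linear scale, and the arrays shared a trimmed mean of 500. Values below 86.6, the median of all values, were raised to that floor, and a gene counted as measured if 1 or both arrays read its probe set at the floor or above. Of the 43 genes, 37 were measured, 32 of them on both arrays. The other 6 (Cyp2b19, Cyp2c65, Cyp2j11, Cyp2j13, Cyp3a16 and Cyp3a44) were below the floor on both. Where 1 side was below the floor, the difference is given as "at least". The signals of different probe sets cannot be ranked as transcript levels, so each gene was compared only with itself. Among genes with several measured probe sets, the pooled SD of the log2 ratio between probe sets of the same gene was 0.29 (4476 genes) and was 0.27 over 5 genes of these families. That spread holds the error of the probes but not the spread between mice.

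Liver identity and the deletion were checked first. Of 16 hepatocyte markers, 14 had a probe set of their own and all 14 were measured on the arrays. Lpcat3, the acyltransferase that puts arachidonate into phospholipids, had a signal of 5173 in the control pool and 2198 in the L-Lpcat3 KO pool, and thus fell by 1.23 on the log2 scale. Where its probe set lies relative to the deleted exons was not stated in the sources used here. Transcripts of the Y chromosome (Eif2s3y, Kdm5d and Uty) were well above the floor on both arrays, and Xist was at 88.7 and 90.8.

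On the whole, P450 signals of families 1 to 3 were lower in the L-Lpcat3 KO pool. Of the 37 measured genes, 30 (81.1%) had a log2 ratio (L-Lpcat3 KO relative to control) below 0, compared with 48.8% of all 12290 measured genes. The median log2 ratio was -0.23 (interquartile range -0.60 to -0.10), and that of all measured genes was 0.01 (interquartile range -0.18 to 0.24). A difference of at least 2-fold was used as the call. By this rule, 4 genes (10.8%) fell, Cyp2b9, Cyp2c23, Cyp2c70 and Cyp2d13, where 0.700% of all measured genes did. No gene of the families rose by 2-fold, against 2.70% of all measured genes. At 1.5-fold, 11 genes (29.7%) were lower against a background of 3.83%, and 2 genes (5.41%) were higher against 9.07%. Whether fewer hepatocytes or less RNA per hepatocyte gave these values cannot be told apart in whole liver.

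**Figure D1:**
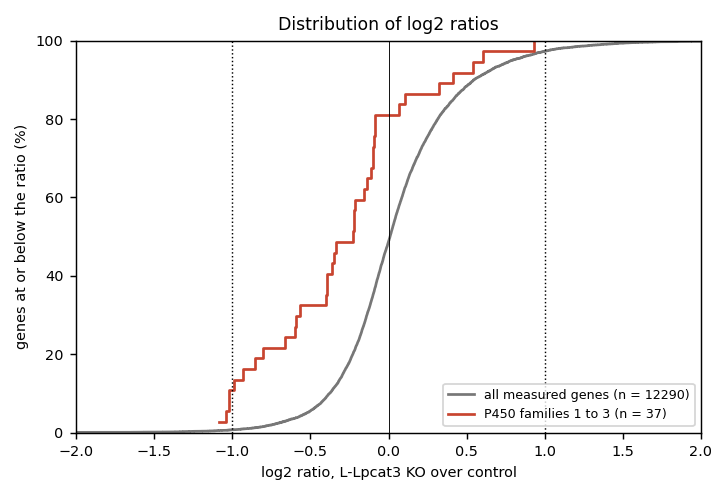
Cumulative share of genes (y axis, percent) at or below a given log2 ratio, L-Lpcat3 KO to control (x axis), for the 37 measured P450 genes of families 1 to 3 and for all 12290 measured genes. The x axis ends at -2 and 2, dotted lines mark 2-fold, and the P450 curve lies to the left of the curve of all genes over most of its range, with a median of -0.23 against 0.01.

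Hepatocyte markers also lay mostly below 0. The 14 measured hepatocyte markers had a median log2 ratio of -0.19, 13 of them were below 0, and their summed signal was 407596 in the control pool and 363255 in the L-Lpcat3 KO pool. All 14 had control signals over 10000. Of all 493 measured genes with such a signal, 75.3% were below 0, with a median of -0.12. None of the 14 markers was lower by 1.5-fold. The lowest was Tat, tyrosine aminotransferase, at -0.44, and Alb, albumin, was at 0.05. When all ratios were centred on these markers, the median of all measured genes became 0.20, that of the P450 genes became -0.04, and 22 of 37 were below 0. In this centring none of the P450 genes was lower by 2-fold, as the 4 that fell lie within 0.09 of that threshold, and over all measured genes the calls were 4.74% higher and 0.358% lower. Centring subtracts 1 constant from every gene, so the gap of -0.24 between the P450 median and the median of all genes is the same before and after it by construction.

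Markers of macrophages and B cells were higher in the L-Lpcat3 KO pool, and those of other cells differed in part. All 12 macrophage markers had log2 ratios above 0 (median 1.21), 7 of them rose by 2-fold, and their summed signal was 15129 in the control pool and 33617 in the L-Lpcat3 KO pool. The 5 B cell markers with a probe set rose (median 1.94, summed signal 898 and 4537), and Ms4a1, Cd79a and Cd79b were below the floor in the control pool. Of 7 stellate cell markers 3 rose (median 0.60, summed signal 14469 and 22675), and of 6 endothelial markers 2 rose (median 0.34, summed signal 5236 and 6767). Of 3 neutrophil markers 1 rose (median 0.33, summed signal 285 and 394). Of 4 T and NK cell markers, 2 were measured (median 0.50) and Cd3g and Cd8a were below the floor on both arrays. Of 4 cholangiocyte markers, 2 were measured (median -0.10), with Krt7 and Krt19 below the floor. Adipoq and Retn, made by adipocytes and below the floor in the control pool, rose, and Lep was below the floor. The macrophage, B cell, stellate, endothelial and adipocyte lists had medians above 0 where the P450 median was below 0, and their part in the result was not tested.

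**Figure D2:**
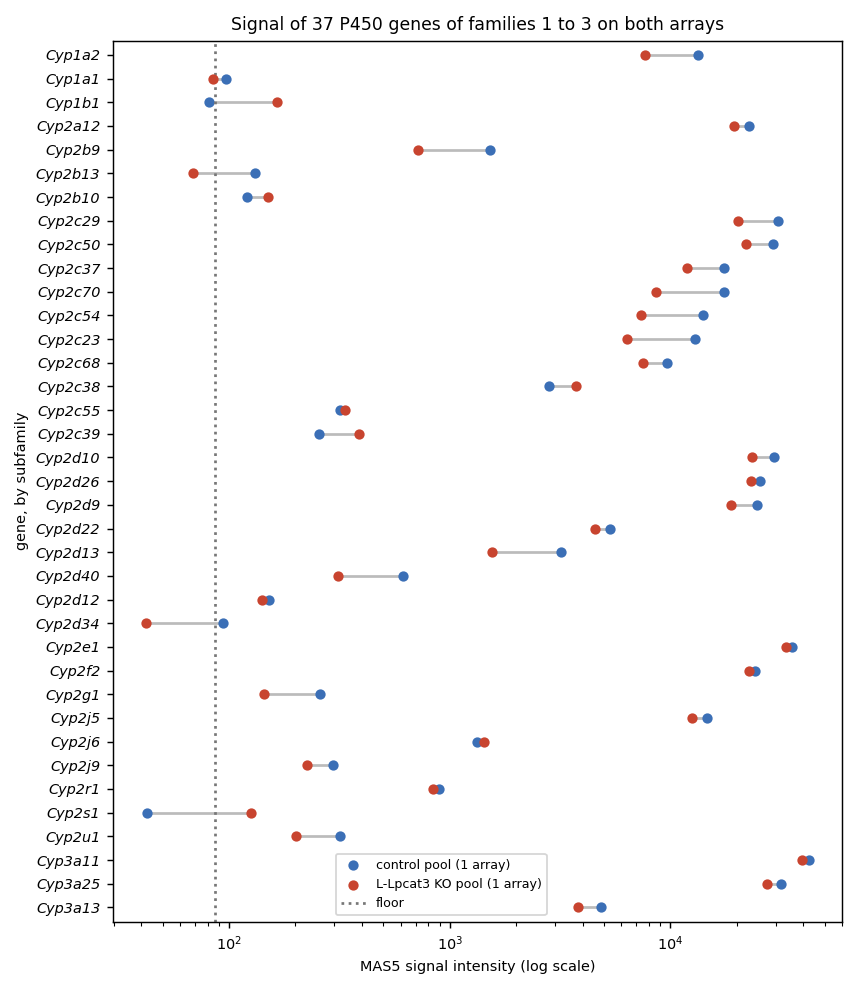
Signal intensity (x axis, log scale) of the 37 measured P450 genes (y axis, grouped by subfamily) on the arrays of the control pool and the L-Lpcat3 KO pool, 1 pool of 5 mice each. The dotted line is the floor of 86.6, points to its left were raised to it before ratios were taken, and the widest gaps among the bright genes are those of Cyp2c70, Cyp2c23, Cyp2c54 and Cyp1a2, all with the L-Lpcat3 KO point on the left.

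The Cyp1 family holds the classical targets of AHR. Cyp1a2, the caffeine-metabolizing enzyme of pericentral hepatocytes, had a signal of 13347 in the control pool and 7637 in the L-Lpcat3 KO pool (log2 ratio -0.81). Cyp1a1, the strongly inducible member, was close to the floor, at 96.4 and 84.8. Cyp1b1, which hydroxylates estrogens and is best known in tissues other than liver, was at 81.4 and 164.9 (at least 1.90-fold higher, with its other 2 probe sets below the floor on both arrays). The 3 genes thus did not move as a group. AHR itself had a log2 ratio of 0.19 and its partner Arnt 0.09. Of the other AHR targets, Nqo1 was at 0.34 and Tiparp at 0.45, while Aldh3a1 and Ahrr were below the floor.

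The Cyp2b genes, which include the mouse genes most used as readouts of CAR, differed among themselves. Cyp2b9, a form more abundant in female than in male liver, fell from 1524 to 717.5, a 2.12-fold difference and the lowest log2 ratio of the families (-1.09). Cyp2b13, its close neighbour and also a female-biased form, was at 130.7 and 68.5 (at least 1.51-fold lower). Cyp2b10, the CAR target proper, was near the floor, and its 3 probe sets did not move one way. They read 120.5 and 150.5, 109.1 and 46.7, and 60.6 and 146.0 in the control and L-Lpcat3 KO pools. No statement on Cyp2b10 can be drawn from such signals. The subfamily median of -0.59 is the value of Cyp2b13, whose difference is a bound set by the floor.

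The upstream sequence of the 2 genes that are lower is shown because they are close to the same sequence. In the RefSeq promoter table of GRCm38.p6, the 250 bases before the start of Cyp2b9 (chr7:26173159-26173408, plus strand) and of Cyp2b13 (chr7:26061245-26061494, plus strand) were identical at 248 positions (99.2%). In all promoters printed here, 5′ to 3′, capitals mark a match on either strand to 1 of 5 motifs. These are the palindrome TTCNNNGAA bound by STAT5 and BCL6, and TTGCNNAA, used here for C/EBP factors and not itself a palindrome. The others are the nuclear receptor half-site AGGTCA, the AHR core GCGTG and the TATA box TATAAA. None of the matches in the printed sequences overlap.
Cyp2b9: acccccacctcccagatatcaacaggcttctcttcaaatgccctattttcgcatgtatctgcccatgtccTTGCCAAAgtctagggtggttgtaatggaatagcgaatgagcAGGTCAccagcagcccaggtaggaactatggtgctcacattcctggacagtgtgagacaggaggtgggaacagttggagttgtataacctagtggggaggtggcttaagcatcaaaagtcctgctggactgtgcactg
Cyp2b13: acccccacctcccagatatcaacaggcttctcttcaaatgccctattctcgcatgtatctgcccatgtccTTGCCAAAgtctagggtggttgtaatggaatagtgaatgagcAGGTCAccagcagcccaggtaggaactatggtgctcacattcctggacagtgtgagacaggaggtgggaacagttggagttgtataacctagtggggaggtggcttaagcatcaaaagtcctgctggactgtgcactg
Both hold the C/EBP motif 180 bases and the nuclear receptor half-site 138 bases before the start, and neither holds a TATA box of these letters. The promoter of Cyp2b10 was identical to that of Cyp2b9 in 182 of 260 aligned positions (70.0%).

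The Cyp2c genes, which act on drugs and on arachidonic and linoleic acid, gave the widest range. Of 10 measured genes 7 were below 0 and 3 above, with a median of -0.48 and a range of -1.02 to 0.60. Cyp2c70, the enzyme that makes muricholic acids in the mouse, fell from 17425 to 8578, a 2.03-fold difference. Cyp2c23, an arachidonic acid epoxygenase, fell from 12963 to 6377, also 2.03-fold, on a probe set whose design allows matches to more than 1 transcript. Cyp2c54 was at 14006 and 7330 (log2 ratio -0.93) and Cyp2c29, an epoxygenase abundant in mouse liver, at 30649 and 20273 (-0.60). Their relatives Cyp2c37 (17597 and 11879, -0.57) and Cyp2c50 (29161 and 22066, -0.40) were lower by less than 1.5-fold. Cyp2c68 was at 9637 and 7503 (-0.36). In contrast, Cyp2c39, which can oxidize retinoic acid, had signals of 255.9 and 388.7 (0.60), and Cyp2c38 of 2815 and 3754 (0.42). Cyp2c55, a form of the colon, differed little, at 319.5 and 334.8 (0.07).

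Along the chromosome, genes with opposite signs were neighbours. In the gene order of the RefSeq table, the next Cyp2c genes after Cyp2c29 are Cyp2c39 and Cyp2c38, the 2 genes of the subfamily with the highest ratios, and further on Cyp2c37, Cyp2c54, Cyp2c50 and Cyp2c70 follow each other, all below 0. Cyp2c66, Cyp2c67, Cyp2c40 and Cyp2c69 had no probe set of their own and were not analysed here. Sequences of these genes are alike, and a probe set may take up signal from a neighbour.

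**Figure D3:**
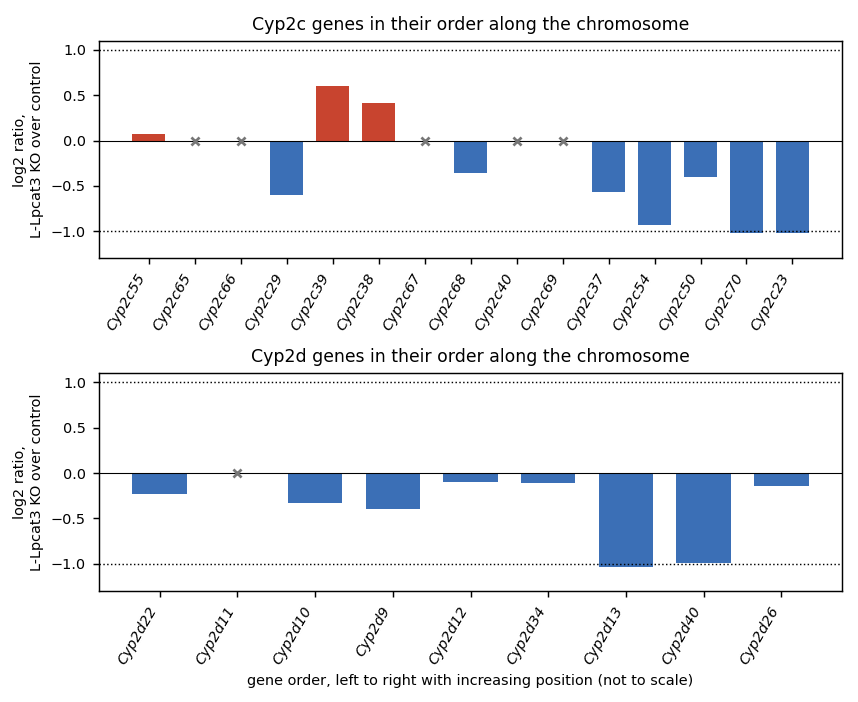
Log2 ratio, L-Lpcat3 KO to control (y axis), of the Cyp2c genes (top) and the Cyp2d genes (bottom), in their order along the chromosome but not to scale (x axis; Cyp2c23 lies apart from the other Cyp2c genes). Red bars are above 0, blue bars below, crosses mark genes below the floor on both arrays or without a probe set of their own, and dotted lines mark 2-fold. All 8 measured Cyp2d genes lie below 0, while Cyp2c39 and Cyp2c38 stand above 0 beside Cyp2c29 at -0.60.

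The promoters of Cyp2c29, Cyp2c39 and Cyp2c38 are shown since these neighbours lay on opposite sides of 0, and that of Cyp2c70 since the gene fell. They lie at chr19:39286835-39287084 (plus strand), chr19:39347096-39347345 (plus strand), chr19:39463076-39463325 (minus strand) and chr19:40187287-40187536 (minus strand).
Cyp2c29: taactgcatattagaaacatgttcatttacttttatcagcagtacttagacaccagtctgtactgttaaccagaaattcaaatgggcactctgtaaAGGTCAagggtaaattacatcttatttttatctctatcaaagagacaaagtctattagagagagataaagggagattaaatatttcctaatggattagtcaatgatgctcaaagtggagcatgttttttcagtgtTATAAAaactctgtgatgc
Cyp2c39: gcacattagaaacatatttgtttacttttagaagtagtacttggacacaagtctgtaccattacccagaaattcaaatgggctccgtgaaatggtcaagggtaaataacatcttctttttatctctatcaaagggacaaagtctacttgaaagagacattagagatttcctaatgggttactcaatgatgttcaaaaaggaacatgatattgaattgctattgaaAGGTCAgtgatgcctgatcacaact
Cyp2c38: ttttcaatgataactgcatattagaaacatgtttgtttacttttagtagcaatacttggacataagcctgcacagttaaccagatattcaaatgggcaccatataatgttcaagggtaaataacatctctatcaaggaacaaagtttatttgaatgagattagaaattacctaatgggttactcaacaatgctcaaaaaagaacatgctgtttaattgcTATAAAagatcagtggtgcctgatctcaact
Cyp2c70: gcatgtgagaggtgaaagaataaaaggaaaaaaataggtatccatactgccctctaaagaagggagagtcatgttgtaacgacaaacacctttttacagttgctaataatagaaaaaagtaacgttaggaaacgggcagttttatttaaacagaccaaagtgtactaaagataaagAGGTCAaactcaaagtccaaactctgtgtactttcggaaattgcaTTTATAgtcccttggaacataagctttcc
Cyp2c29 had a nuclear receptor half-site 154 bases and a TATA box 19 bases before the start. In a global alignment it was identical to Cyp2c39 at 195 of 263 positions (74.1%) and to Cyp2c38 at 187 of 272 (68.8%). At the aligned place of its half-site, the letters were tggtca in Cyp2c39 and tgttca in Cyp2c38. Cyp2c39 had a half-site elsewhere, 25 bases before the start, and Cyp2c38 had a TATA box at 31 bases. Cyp2c70 had a half-site at 74 bases and a TATA box at 29 bases, and it shared 127 of 272 aligned positions (46.7%) with Cyp2c29.

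Over the families, 29 of the 37 measured genes had a promoter in the table, and the same 250 bases were searched in 27025 genes. The nuclear receptor half-site was present in 9 of 29 (31.0%) and in 13.8% of all promoters. The TATA box was in 14 of 29 (48.3%) and 13.0%, and the C/EBP motif in 6 of 29 (20.7%) and 9.55%. The AHR core was found in 5 of 29 (17.2%) and 28.2%, and the palindrome of STAT5 and BCL6 in 0 of 29 and 7.18%. Of the 11 genes lower by 1.5-fold, 6 had a promoter in the table, of which 4 held the half-site (Cyp2b9, Cyp2b13, Cyp2c29 and Cyp2c70). The TATA box was held by 4 (Cyp1a2, Cyp2c29, Cyp2c70 and Cyp2d40) and the C/EBP motif by 2 (Cyp2b9 and Cyp2b13). The nearly identical promoters of Cyp2b9 and Cyp2b13 are both counted. A match describes these letters only, anywhere in the window, and is not a site of binding. The TATA box matches of Cyp2d40, Cyp2j5 and Cyp3a11, for example, lay 91, 128 and 234 bases before the start. The promoter of Cyp1a2 (chr9:57683656-57683905, minus strand) had a TATA box 29 bases before the start and no AHR core within this window.
Cyp1a2: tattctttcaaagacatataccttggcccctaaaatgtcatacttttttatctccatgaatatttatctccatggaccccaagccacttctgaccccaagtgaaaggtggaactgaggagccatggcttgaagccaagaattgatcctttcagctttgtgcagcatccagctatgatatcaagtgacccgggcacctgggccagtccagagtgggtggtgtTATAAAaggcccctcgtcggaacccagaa

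The Cyp2d genes, relatives of the human drug-metabolizing enzyme CYP2D6, were all below 0. Their median over 8 measured genes was -0.28, within a range of -1.04 to -0.10. Cyp2d13, which the RefSeq table lists as a transcribed pseudogene, fell from 3180 to 1549 (2.05-fold), and its other probe set was at 2052 and 1081 (log2 ratio -0.93). Cyp2d40, next to it on the chromosome, was at 616.9 and 311.2 (-0.99), just short of 2-fold. The bright members differed less. Cyp2d9, a testosterone hydroxylase of male liver, was at 24627 and 18779 (-0.39), Cyp2d10 at 29515 and 23425 (-0.33) and Cyp2d26 at 25483 and 23177 (-0.14). Cyp2d22 was at 5310 and 4534 (-0.23). Cyp2d12 was at 151.4 and 141.1, and Cyp2d34 was at 93.7 in the control pool and below the floor in the L-Lpcat3 KO pool.

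The Cyp3a genes, the main drug oxidases under PXR, differed little. Cyp3a11, the most used readout of PXR in the mouse, was at 42627 and 39715 (log2 ratio -0.10). Cyp3a25 was at 31723 and 27361 (-0.21) and Cyp3a13 at 4849 and 3810 (-0.35). A probe set annotated to both Cyp3a41a and Cyp3a41b, forms of female liver, had signals of 343.9 and 173.2 (-0.99) and was not counted as a gene. Cyp3a16 and Cyp3a44, also female-biased, were below the floor.

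Among the other subfamilies the abundant hepatocyte enzymes were close to their control values. Cyp2e1, which oxidizes ethanol in pericentral cells, was at 35733 and 33455 (-0.10), and Cyp2f2, known for naphthalene, at 24274 and 22842 (-0.09). Cyp2a12 was at 22638 and 19456 (-0.22), and a probe set annotated to both Cyp2a4 and Cyp2a5 at 24707 and 20012 (-0.30). Cyp2j5, an epoxygenase of liver and kidney, was at 14638 and 12538 (-0.22), Cyp2j6 at 1335 and 1434 (0.10) and Cyp2j9 at 295.5 and 225.1 (-0.39). Cyp2r1, which adds the first hydroxyl group to vitamin D in the liver, was at 891.9 and 839.3 (-0.09). Differences of this size were smaller than the spread between probe sets of the same gene, apart from those of Cyp2j9 and the probe set of Cyp2a4 and Cyp2a5.

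A few members of low signal stood further from 0. Cyp2g1, best known in the olfactory mucosa, was at 259.2 and 143.6 (log2 ratio -0.85). Cyp2u1, a fatty acid hydroxylase, was at 318.2 and 200.7 (-0.66), but its second probe set was at 102.2 and 113.5 (0.15). Cyp2s1, a form of epithelia, was below the floor in the control pool and at 125.8 in the L-Lpcat3 KO pool (at least 1.45-fold higher).

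Differences were seen also among the brightest genes, where background matters least. Of the 37 genes, 16 had a control signal over 10000. With the values as deposited, all 16 were below 0 (median -0.36, range -1.02 to -0.09), 2 of them fell by 2-fold and 5 were lower by 1.5-fold. The sign of the smallest differences depended on the normalization. With quantile normalization Cyp2e1, Cyp2f2 and Cyp3a11 were at 0.01, 0.02 and 0.04, and with loess at 0.01, 0.004 and 0.01. Of all 493 measured genes with such a control signal, 75.3% were below 0, the median was -0.12, 3 (0.609%) fell by 2-fold and 13 (2.64%) were lower by 1.5-fold. The 2 and 5 P450 genes are among these 3 and 13.

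The members were also grouped by known role. Of 11 measured members listed as CAR or PXR regulated, 9 were below 0 (median -0.40), 4 were lower by 1.5-fold, and Cyp2b9 fell by 2-fold. Over all 37 measured members, 30 (81.1%) were below 0 and 11 (29.7%) were lower by 1.5-fold, so these counts were close to those of the families. Over all measured genes, 48.8% were below 0 and 3.83% were lower by 1.5-fold. The receptors were at log2 ratios of -0.32 for Nr1i3, which encodes CAR (4008 and 3201), and 0.24 for Nr1i2, which encodes PXR (946.2 and 1114). Targets of CAR and PXR outside the P450 families lay mostly above 0. Of 15 measured, 12 had a ratio above 0 (median 0.13). Gstm3, a glutathione transferase, rose from 6619 to 17413 (1.40, and 1.92 on its other probe set), Gstm2 was at 0.86, and Sult1e1, an estrogen sulfotransferase below the floor in the control pool, was at least 1.59-fold higher. Ces2a, a carboxylesterase, was the only target of the 15 that was lower by 1.5-fold (-0.68), and Aldh1a1 was at -0.18. The members of pericentral hepatocytes were all below 0 (7 of 7, median -0.57), from Cyp2c54 at -0.93 to Cyp2e1 at -0.10. All 7 had control signals over 10000. Of genes with such a signal, all 16 P450 members and 75.3% of all measured genes were below 0. With quantile normalization and with loess, Cyp2e1 and Cyp3a11 were above 0. The pericentral list is not separate from that of CAR and PXR regulated members, as Cyp2c29, Cyp2c37, Cyp2c50, Cyp2c54 and Cyp3a11 are in both. Of 10 other pericentral genes 7 were below 0 (median -0.21), and 1 rose, Gstm3, which is also in the list of CAR and PXR targets (1.40). Lgr5 was at -0.65, and Glul, glutamine synthetase, at 0.23. Of 5 periportal genes 3 were below 0 (median -0.21), with Cdh1 at -0.94 and Hal at -0.61.

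The 2 measured members of higher level in female liver, Cyp2b9 and Cyp2b13, had a median of -0.84. The value of Cyp2b13 in this median is a bound set by the floor. Members best known outside the liver or outside drug metabolism had a median of -0.09 over 8 measured genes. The list of electron transfer partners also took in genes, such as Fdx1, other than the donors named above for these families. It showed no 1.5-fold difference among 6 measured (median -0.06), from Fdx1 at -0.29 to Pgrmc2 at 0.38. Cyb5a, cytochrome b5, was at 31469 and 27723 (-0.18). Por, which encodes P450 oxidoreductase, and Fdxr were not analysed here. Among 15 measured regulators 1 fell, Bcl6, a repressor with a higher level in male liver, from 1420 to 464.4 (-1.61, and -0.42 on its other probe set). Stat5b, which carries the growth hormone signal, was at 1190 and 777.0 (-0.62), Nr3c1, the glucocorticoid receptor, at -0.46, Hnf4a at -0.28 and Cebpb at 0.03. The median of the regulators was -0.07. Over 22 measured genes of other P450 families the median was 0.12, 3 fell and 1 rose by 2-fold.

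**Figure D4:**
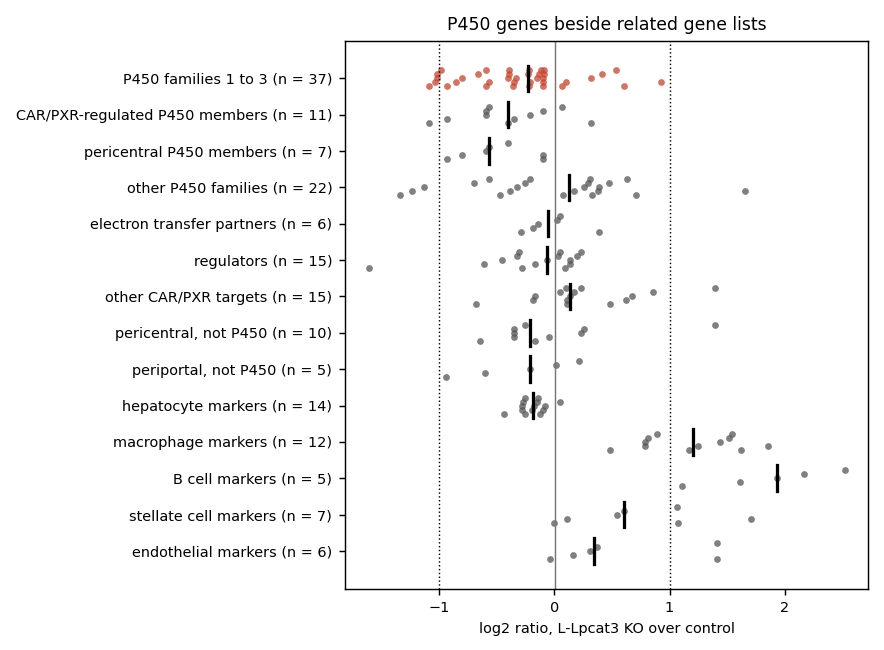
Log2 ratios of L-Lpcat3 KO over control (x axis) of the measured genes of 14 groups (y axis), 1 point per gene, with black bars at the medians, a grey line at the median of all measured genes and dotted lines at 2-fold. P450 families 1 to 3 and the hepatocyte markers have like medians (-0.23 and -0.19), the other CAR and PXR targets centre on 0.13, and macrophage and B cell markers stand at medians of 1.21 and 1.94.

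The direction of the 13 genes that differed by 1.5-fold was the same under every processing setting in which each was measured, but the 2-fold call was not. Cyp2b9 ranged from -1.10 to -0.90, Cyp2c70 from -1.03 to -0.83, Cyp2c23 from -1.03 to -0.84, Cyp2d13 from -1.05 to -0.85, Cyp2d40 from -1.02 to -0.61 and Cyp1a2 from -0.81 to -0.62. Without probe sets that can match several transcripts, Cyp2c23 was not measured and Cyp2d13 was read on its other probe set, which left Cyp2b9 and Cyp2c70 as calls. With loess the calls were Cyp2b9 and Cyp2d13. The genes just outside the call were Cyp2d40 at -0.99 and Cyp2c54 at -0.93 on the lower side and Cyp1b1, at a lower bound of 0.93, on the higher side.

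**Figure D5:**
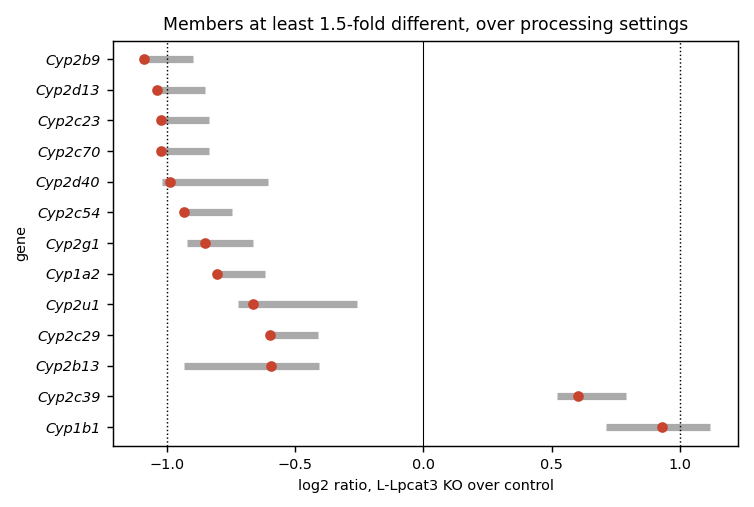
Log2 ratio, L-Lpcat3 KO to control (x axis), of the 13 P450 genes that differed by at least 1.5-fold (y axis). Red points are the values in the text, grey bars span the lowest to the highest value over the processing settings tried, and dotted lines mark 2-fold. No bar crosses 0, and those of the 4 genes that fell cross the 2-fold line, as do those of Cyp2d40 and Cyp1b1.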

How the data were processed

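Liver RNA of L-Lpcat3 KO and control mice, 1 pool of 5 males per genotype, was compared on 2 arrays. The deposited values are linear signal intensity that the authors obtained with MAS5 (in the submitters' processing notes, no version stated), and both arrays had a trimmed mean of 500. This global scaling rests on most transcripts having equal levels in both pools. No genome build was named by the labels or files. Of 45101 probe sets, 34945 had 1 gene symbol in the platform annotation, 932 had several, 9160 were unnamed here and 64 were controls. By gene identifier, symbols were brought up to date with RefSeq's GRCm38.p6 table (18031 of 18193 genes, and all 43 P450 genes), which gave names, neighbours and promoter sequences, and no array coordinate. A gene with several probe sets was read on the one whose mean log2 signal was highest. Values below the median (86.6) were raised to it. With 1 array per genotype, no p-value is given, and the number of arrays limits precision.

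Signals were given for P450 genes that differed by at least 1.5-fold, the 10 of highest signal, the highest of each subfamily and those of known roles. Up to 4 of each other list with the largest differences, and the one of highest signal, were named. Other P450 and list genes named were chosen after their values were seen. Members and lists were chosen with earlier results of these data known. Promoters were aligned globally (match 2, mismatch -1, gap opening -5, gap extension -1). Counting was tested on simulated data. Alternatives were centring on all genes or on hepatocyte markers, quantile normalization, loess (span 0.3), floors at the 25th or 75th percentile or none, a pseudocount of 50, averaged probe sets, only probe sets specific to 1 transcript by design, genes above the floor on both arrays, and thresholds of 1.5-fold and 3-fold. The software was statsmodels 0.14.6, pandas 2.3.3, Biopython 1.88, numpy 2.4.6, matplotlib 3.10.9 and scipy 1.17.1, run in Python 3.11.15.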

Additional observations from a re-analysis of the deposited data

How the results depend on the processing

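The median log2 ratio of the P450 genes stayed below 0 under each alternative, from -0.35 to -0.04, and the gap to the median of all genes from -0.37 to -0.20. Against 4 genes at least 2-fold lower, there were 2 with loess (Cyp2b9 and Cyp2d13), 0 with centring on hepatocyte markers, 8 with no floor, 2 without probe sets that can match several transcripts, 11 at a threshold of 1.5-fold and 0 at 3-fold. Quantile normalization gave 3, of which Cyp2b9 and Cyp2d13 were shared with the 4. Against 0 genes at least 2-fold higher, there were 1 with centring on hepatocyte markers (Cyp1b1) and 2 with the floor at the 25th percentile (Cyp1b1 and Cyp2s1). With no floor there were 3, and at 1.5-fold 2. Over all measured genes, 2.70% were at least 2-fold higher in the main setting and 9.07% at least 1.5-fold higher. The 2-fold share was 4.74% with centring on hepatocyte markers, 7.02% with the floor at the 25th percentile and 12.3% with no floor. The Cyp2b median of -0.59 became -0.92 with the floor at the 25th percentile, -1.09 with the floor at the 75th (1 gene) and -1.01 with no floor, but -0.38 over genes above the floor on both arrays and -0.41 with centring on hepatocyte markers. Over all measured genes, the share at least 2-fold lower was 0.700%, but 0.358% with centring on hepatocyte markers, 2.97% and 0.335% with the floor at the 25th and 75th percentile and 6.50% with no floor. The floor at the 75th percentile left 25 of the 37 genes measured and moved Cyp2d40 from -0.99 to -0.61. The 8 lower genes with no floor were the 4 and Cyp2b19, Cyp2d34, Cyp2j11 and Cyp3a16. The 3 higher ones were Cyp1b1, Cyp2j13 and Cyp2s1. Each of these 3, and each of the added lower genes, read below 86.6 on 1 or both arrays. The cause of the other changes was not tested. Of 385 further values of single genes, 374 moved by less than the spread between probe sets. Many of them could hardly move, as centring shifts every gene alike and another floor leaves bright genes unchanged. None of the 4 called genes changed sign. Cyp1a1, Cyp2d12, Cyp2d26, Cyp2d34, Cyp2e1, Cyp2f2, Cyp2r1 and Cyp3a11, all close to 0 in the main setting, did so in some setting. The main value of Cyp2d34, -0.11, was a bound set by the floor. It was -1.15 with the floor at the 25th percentile and with no floor, and -0.64 with the pseudocount. Members below 0 were 30 of 37 in the main setting, 27 of 37 with quantile normalization and 27 of 36 with loess. No paired analysis was possible because each genotype had 1 array and the labels carry no replicate number.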

Other observations

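P450 families outside families 1 to 3 moved in both directions. Of 30 genes with a probe set of their own, 22 were measured, 12 of them above 0 and 10 below. The 3 that fell were Cyp7b1, the oxysterol hydroxylase of bile acid synthesis (14576 in the control pool and 5739 in the L-Lpcat3 KO pool, log2 ratio -1.34), Cyp7a1, the rate-limiting enzyme of that pathway (9080 and 3848, -1.24), and Cyp4f14, a fatty acid hydroxylase (2836 and 1293, -1.13). Cyp8b1, which directs the pathway to cholic acid, was at 8611 and 10785 (0.32), and Cyp27a1, of its alternative route, at 14708 and 11728 (-0.33). Together with Cyp2c70 at -1.02, the bile acid enzymes of the P450 superfamily thus differed among themselves. Cyp17a1, a steroid hydroxylase, rose from 626.1 to 1975 (1.66). Of the Cyp4a genes, known targets of PPAR alpha, Cyp4a14 was at 0.25, Cyp4a31 at 0.71 and Cyp4a12a at 0.08, and Ppara itself was at 0.05.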
